A study of Mus musculus with 18 samples.

Results

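Basophils lacking tristetraprolin (TTP) were compared with wild-type (WT) basophils 4 h after antigen, over all genes with enough reads to test. The comparison took 6 of the 18 bulk RNA sequencing libraries of the study, 3 labelled TTP-KO and 3 WT, and 14076 of the 56413 genes in the table. Mouse bone marrow cells of both genotypes spent 7 days in interleukin-3 (0.3 ng/mL) and received IgE against the hapten TNP (1 µg/mL) on day 6. They were enriched on magnetic beads for CD49b, an integrin chain on basophils and platelets, and exposed to ovalbumin carrying TNP (TNP-OVA, 10 ng/mL) for 4 h. The other 12 libraries were TTP-KO and WT after 2 h of TNP-OVA or after 2 h of plain ovalbumin (control OVA). They served to ask whether a difference at 4 h was also present in those conditions. No control OVA library was taken at 4 h, so control and 4 h of TNP-OVA differ in both antigen and time. The labels give no strain, age or sex, nor the part of the gene that was altered. Separate mice or cultures are not stated for the 3 libraries of a group, so the p-values measure a spread that could be technical only.

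Basophils are rare granulocytes that display IgE on its high-affinity receptor. When antigen links the bound IgE they release histamine and lipid mediators within minutes and then make cytokines and chemokines from newly transcribed mRNA. Many of these mRNAs carry AU-rich elements in the 3' untranslated region (3' UTR). TTP, the protein encoded by Zfp36, binds such elements and recruits the machinery that shortens the poly(A) tail, so that the mRNA decays, and in most cell types it is itself induced by the stimulus whose transcripts it limits.

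After 4 h of antigen the interleukin-4 mRNA Il4 was higher in TTP-KO basophils, and so were the chemokine Ccl3, the growth factor Hbegf and a broad set of macrophage and neutrophil genes. Lower in TTP-KO were the cytokines Il3, Osm and Lif, 11 of 24 tested chemokines, antigen-induced feedback genes such as Socs1 and Socs3, surface receptors such as P2ry1 and F2r, and genes of MHC class II and of B cells. In all, 735 genes passed an adjusted p of 0.05 in edgeR's quasi-likelihood test, which is 5.22% of the genes tested. Of these, 257 were higher in TTP-KO (1.83%) and 478 lower (3.4%). Those shares over all genes are the background for the counts of list members below. Most differences were small: 47 of the 735 reached 2-fold, 12 of them higher and 35 lower in TTP-KO. The median log2 difference over all genes was 0.01.

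The 6 libraries held between 7555800 and 12733000 estimated counts, with mitochondrial genes at 1.85% to 2.01% of a library. Other shares differed by genotype without overlap. The ribosomal RNA sequence Rn18s-rs5 took 9.94%, 10.97% and 10.57% in TTP-KO and 8.95%, 9.28% and 9.82% in WT. Ribosomal protein genes took 3.43%, 3.19% and 3.43% in TTP-KO and 3.09%, 2.90% and 2.97% in WT. The cause was not tested. No pair of libraries in a group was a copy. The first principal component took 27.7% of the variance and set the 3 TTP-KO libraries, at -12.2, -31.1 and -16.3, apart from the 3 WT libraries, at 13.2, 20.1 and 26.4. All 3 libraries of one group lay above all 3 of the other for 25.1% of genes (12.3% higher and 12.8% lower in TTP-KO), so the absence of overlap alone marks no gene. Leaving out any 1 library gave between 500 and 559 called genes, and 338 of the 735 kept their call in all 6 such fits.

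Zfp36 RNA was present at 349, 322 and 301 CPM (counts scaled by library size) in the libraries labelled TTP-KO, against 268, 307 and 309 CPM in WT. The groups overlapped, and the log2 difference was 0.14 ± 0.05 (SE, adjusted p = 0.15). An altered Zfp36 gene can still be transcribed and counted, so this level does not check the genotype label. Its relatives Zfp36l1 and Zfp36l2, which bind the same kind of element, had log2 differences of 0.13 ± 0.05 (adjusted p = 0.17) and 0.09 ± 0.04 (adjusted p = 0.29).

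Il4, the cytokine by which basophils act on type 2 immunity, reached 1301, 1187 and 1186 CPM in TTP-KO, against 749, 777 and 829 CPM in WT. Every TTP-KO library lay above every WT library, a log2 difference of 0.64 ± 0.07 (SE, adjusted p = 4.2e-05). Il13, the other main type 2 cytokine, had 137, 147 and 135 CPM in TTP-KO and 139, 150.4 and 159.9 CPM in WT, with overlapping groups and a log2 difference of -0.10 ± 0.05 (adjusted p = 0.38). The genotype difference of Il4 at 4 h exceeded that at 2 h by 0.63 on the log2 scale (edgeR interaction, adjusted p = 0.012) and that in control by 0.65 (adjusted p = 0.009). For Il13 the difference at 4 h was below that at 2 h by -0.65 (adjusted p = 4.9e-05): it had been 0.55 at 2 h (adjusted p = 8.6e-08). The pair thus took opposite courses between 2 h and 4 h.

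**Figure D1:**
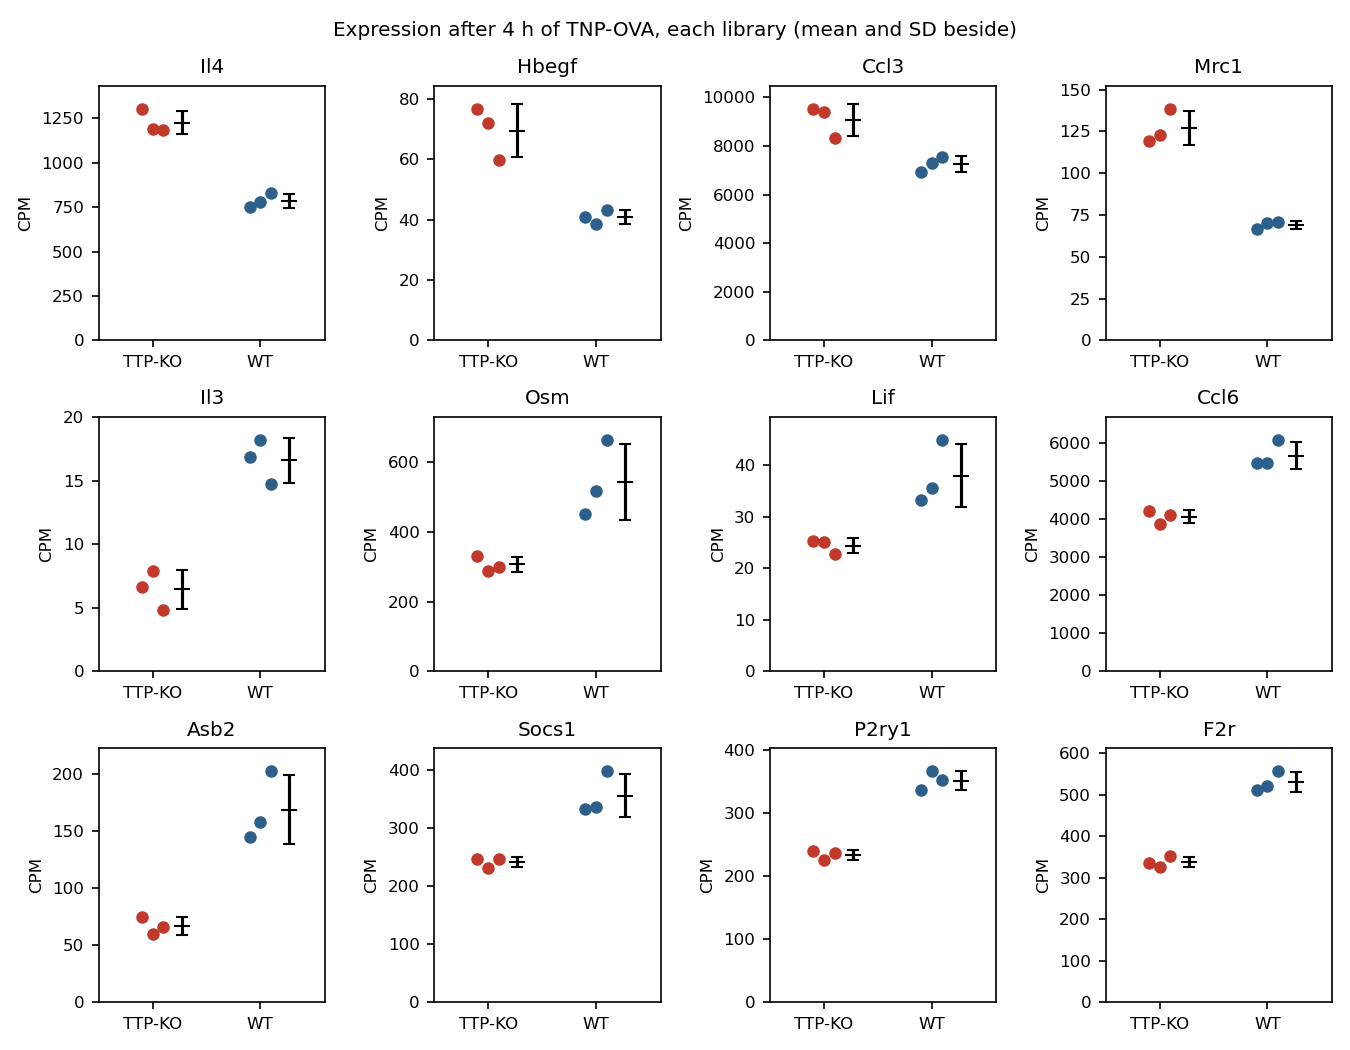
CPM of 12 genes in each of the 3 TTP-KO (red, left) and 3 WT (blue, right) libraries after 4 h of TNP-OVA, with the mean and SD in black beside the points. Il4, Hbegf, Ccl3 and Mrc1 are higher in all TTP-KO libraries, and the other 8 genes are lower in all of them.

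Other cytokines were lower in TTP-KO. Il3, the growth factor of basophils themselves, stood at 6.64, 7.92 and 4.83 CPM in TTP-KO, against 16.9, 18.2 and 14.7 CPM in WT. This was a log2 difference of -1.37 ± 0.25 (adjusted p = 0.00092) with no overlap. A pair of cytokines that signal through the receptor chain gp130 shared this direction. Osm (oncostatin M) had 332, 289 and 301 CPM in TTP-KO and 451, 518 and 664 CPM in WT, a log2 difference of -0.82 ± 0.11 (adjusted p = 0.00046), although a fit of the 6 libraries alone gave an adjusted p of 0.0824. Lif (leukaemia inhibitory factor) had 25.4, 25 and 22.8 CPM in TTP-KO and 33.3, 35.6 and 44.9 CPM in WT, a log2 difference of -0.63 ± 0.10 (adjusted p = 0.00015). Il6st, which encodes gp130 itself, was higher in TTP-KO by 0.41 ± 0.08 (adjusted p = 0.00093).

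Of 26 tested cytokines, 2 were higher and 5 lower in TTP-KO, and their median log2 difference was -0.09. The members lower beside Il3, Osm and Lif were Tnfsf14 (LIGHT, a TNF family ligand, -0.26 ± 0.05) and Il1rn (the interleukin-1 receptor antagonist, -0.19). The second higher one was Il27 (0.91, adjusted p = 0.039). Its call ended without WT replicate 3 (adjusted p = 0.112), with DESeq2 (0.0537), with the 6 libraries alone (0.0527) and with a replicate block (0.0531). It also ended without TTP-KO replicate 1, TTP-KO replicate 2 or WT replicate 2, where 1 cytokine was called higher. Of the classic AU-rich cytokine mRNAs, Tnf had 181, 187 and 188 CPM in TTP-KO and 192, 208 and 219.8 CPM in WT (-0.15 ± 0.06, adjusted p = 0.12). Csf2 (GM-CSF) had 5.61, 6.1 and 4.72 CPM in TTP-KO and 6.71, 7 and 8.24 CPM in WT (-0.42 ± 0.21, adjusted p = 0.32). Both lay below WT in every library without passing the test. Il6 had 2146, 2061 and 1845 CPM in TTP-KO and 2094, 2428 and 2512 CPM in WT (-0.22 ± 0.06, adjusted p = 0.053), with overlap between the groups.

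Among released growth factors, Hbegf, an EGF receptor ligand, had 76.7, 72 and 59.8 CPM in TTP-KO, against 40.9, 38.7 and 43.2 CPM in WT. It was higher by 0.77 ± 0.09 on the log2 scale (adjusted p = 2.8e-06), without overlap. Areg (amphiregulin), a second ligand of this receptor, averaged 729 ± 66.4 CPM in TTP-KO and 601 ± 30.5 CPM in WT (SD, n = 3 each), a log2 difference of 0.28 ± 0.07 (adjusted p = 0.016). Its call was kept in 2 of the 6 fits that left out a library, and without TTP-KO replicate 1, TTP-KO replicate 2 or WT replicate 1 only Hbegf was called higher in this list of 15. Hgf, which acts on epithelium through the receptor Met, was lower at 542, 516 and 534 CPM in TTP-KO, against 642, 668 and 725 CPM in WT (-0.35 ± 0.05, adjusted p = 6.3e-06).

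Chemokines moved in both directions, mostly down. Of 24 tested, 2 were higher and 11 lower in TTP-KO, with a median log2 difference of -0.26. Ccl3, which attracts monocytes and neutrophils, had 9511, 9385 and 8318 CPM in TTP-KO, against 6916, 7314 and 7533 CPM in WT. This was a rise of 0.32 ± 0.05 (adjusted p = 0.00037). Its close relative Ccl4 was lower instead, at 7674, 7822 and 7139 CPM in TTP-KO and 8667, 9003 and 9284 CPM in WT (-0.25 ± 0.04, adjusted p = 0.00029). Neither gene's groups overlapped. Cxcl14, the second chemokine that rose, averaged 34.6 ± 3.57 CPM in TTP-KO and 17.6 ± 0.769 CPM in WT (0.98 ± 0.14, adjusted p = 3e-05).

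The largest fall among chemokines was that of Ccl22, a ligand of the T cell receptor Ccr4, which had 5.09, 3.63 and 5.03 CPM in TTP-KO and 22.8, 20.8 and 20.3 CPM in WT (-2.20 ± 0.22, adjusted p = 7.5e-08). Ccl22 had already differed in control, by -1.52 (adjusted p = 0.0018), and at 2 h, by -1.13 (adjusted p = 0.024). Its change to 4 h did not pass edgeR's interaction test from control (adjusted p = 0.54) or from 2 h (adjusted p = 0.31). Ccl24 (eotaxin-2), which recruits eosinophils, had 26.2, 27.8 and 19.5 CPM in TTP-KO and 46.8, 51.6 and 46.5 CPM in WT (-0.98 ± 0.14, adjusted p = 5.7e-05). Ccl1, a ligand of Ccr8, fell by 0.88 on the log2 scale, and the monocyte attractant Ccl2 fell by 0.65. All 4 genes were lower in every TTP-KO library. Ccl6 and Ccl9, which in mice act through Ccr1, were lower at high expression. Ccl6 had 4214, 3864 and 4107 CPM in TTP-KO and 5456, 5460.2 and 6067 CPM in WT (-0.48 ± 0.04, adjusted p = 5.5e-09). Ccl9 averaged 3648 ± 21.8 CPM in TTP-KO and 5004 ± 215 CPM in WT (-0.46 ± 0.03, adjusted p = 1.5e-10). Ccl5 fell by 0.44.

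Receptors for such signals were called in both directions. Of 40 tested cytokine, chemokine and adhesion receptors, 3 were higher (7.5%) and 8 lower (20%) in TTP-KO, with a median log2 difference of -0.11. Over all genes tested the shares were 1.83% and 3.4%. Without TTP-KO replicate 3 or WT replicate 3 the count of lower ones was 5. The higher ones included Il6st and the integrin chain Itgam (0.25 ± 0.05). Lower in TTP-KO were Ccr2, the receptor for Ccl2 (-0.37 ± 0.07), Cxcr2 (-0.34 ± 0.04), the interleukin-7 receptor chain Il7r (-0.25 ± 0.05) and Ccr1, the receptor for Ccl6 and Ccl9 (-0.24 ± 0.04).

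The reported targets of TTP bear most directly on the protein's role. TTATTTATT, a form of the element it recognises, was in the 3' UTR of 15 of the 40 tested. The sites below were read from GENCODE M21 transcripts (GRCm38), in the longest annotated 3' UTR of each gene on the transcript's strand, written 5' to 3' as DNA, with TTATTTATT in capitals. Tnf and Csf2 were chosen as textbook targets, Il13 as the type 2 cytokine that shifted between 2 h and 4 h, Lif and Cish as genes lower and Cd38 as a gene higher in TTP-KO at 4 h. Il13, Cish and Cd38 are not in the list of reported targets.
Tnf, chr17:35199683-35199709, minus strand: taTTATTTATTATTTATTTATTattta
Csf2, chr11:54247326-54247352, minus strand: aatatTTATTTATTTATTTATTTATTt
Il13, chr11:53631742-53631768, minus strand: ttcttgatcTTATTTATTatggttgtg
Lif, chr11:4272040-4272066, plus strand: aaggggcctTTATTTATTatttaaaac
Cish, chr9:107301378-107301404, plus strand: atacagtatTTATTTATTTATTctcct
Cd38, chr5:43911496-43911522, plus strand: tttcctcatTTATTTATTtaattgagc
Overlapping copies were counted, so Tnf holds 5 copies of the nonamer in its 3' UTR, Csf2 4, Lif and Cish 2, and Il13 and Cd38 1. The same nonamer thus lies in a gene that was higher in TTP-KO, in genes that were lower and in genes that did not pass the test.

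Of 40 tested members of the list of reported TTP target mRNAs, 2 were higher and 12 lower in TTP-KO at 4 h, and their median log2 difference was -0.13. The 2 higher ones were Ccl3 and Plau, the urokinase protease, with 56.2, 61.2 and 52.1 CPM in TTP-KO and 43.7, 35.8 and 41.5 CPM in WT (0.49 ± 0.09, adjusted p = 0.00077). The lower ones included Il3, Ccl2, Lif and Ccl4, the cytokine signalling inhibitor Socs3, the survival factor Ier3 and the cell cycle inhibitor Cdkn1a (-0.27 ± 0.04, adjusted p = 1.7e-05). Ptgs2, the inducible cyclooxygenase, had 480.0, 502 and 415 CPM in TTP-KO and 406, 468 and 502 CPM in WT, a log2 difference of 0.02 ± 0.08 (adjusted p = 0.94). Cxcl1 and Cxcl2 did not pass the test either (-0.02 ± 0.15, adjusted p = 0.96, and 0.17 ± 0.09, adjusted p = 0.39).

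The motif shares of both directions were set beside that of all genes. TTATTTATT, searched on the sense strand, was present in the longest 3' UTR of 10.6% of genes higher in TTP-KO (26 of 246 with an annotated 3' UTR), 7.73% of genes lower (34 of 440) and 8.23% of all genes tested (953 of 11586). Its share in the reported targets was 37.5% (15 of 40). The core heptamer TATTTAT, which the nonamer contains, was in 33.3% of the higher genes, 32.7% of the lower and 30.1% of all. Among genes raised by antigen at 2 h in WT, the heptamer was in 53.3% of the 45 that were higher in TTP-KO, 37.6% of the 269 that were lower and 39.0% of all 2167 with an annotated 3' UTR. The nonamer shares of these sets were 11.1%, 10.4% and 10.7%. The median 3' UTR was 1181 bases in the higher, 1310 in the lower and 1164 in all genes. Of 78 genes with 3 or more nonamers, 4 were higher (5.13%) and 0 lower in TTP-KO, and their median log2 difference was 0.01. The share called higher was 3.08% with 2 nonamers, 2.42% with 1 and 2.07% with 0. The share called lower was 5.4%, 3.62% and 3.82%. Of the 21 antigen-raised genes with 3 or more nonamers, 0 were higher and 0 lower, with a median log2 difference of -0.12. With 0 nonamers, 2.07% of antigen-raised genes were higher and 12.45% lower, with a median of -0.07. A set of 21 genes is too small to tell a count of 0 higher from such a share. Il4, Hbegf and Mrc1 hold the heptamer 2 times and the nonamer in none of these windows, and Il3 holds neither. A match is only a run of letters and does not show binding.

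Genes that antigen had induced made up most of the genes lower in TTP-KO. Induction was taken from libraries that the 4 h comparison does not use: 2 h of TNP-OVA against control OVA in WT raised 2512 genes (17.8% of those tested, edgeR adjusted p under 0.05) and lowered 2432 (17.3%). Of the 478 genes lower in TTP-KO at 4 h, 292 (61.1%) were among the raised genes and 57 (11.9%) among the lowered. Of the 257 genes higher in TTP-KO, 47 (18.3%) were raised and 54 (21.0%) lowered, shares near those of all genes. Of 742 genes raised at least 2-fold in WT (5.27%), 10 were higher and 135 lower in TTP-KO at 4 h, with a median log2 difference of -0.16. Of 309 genes lowered at least 2-fold (2.2%), 5 were higher and 5 lower, with a median of 0.09. Il4, Ccl3 and Hbegf are among the 10 induced genes that were higher. Their induction by 2 h of antigen in WT was 3.26, 3.06 and 2.04 on the log2 scale.

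**Figure D2:**
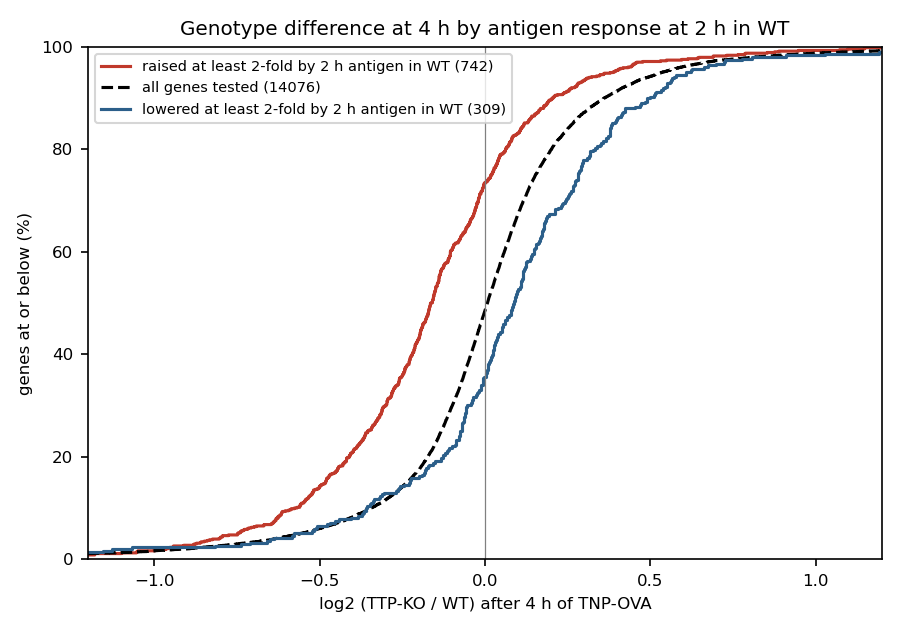
Cumulative share of genes (vertical axis, %) against the log2 difference TTP-KO over WT after 4 h of TNP-OVA (horizontal axis), for genes raised at least 2-fold by 2 h of antigen in WT (red, 742), all genes tested (black dashes, 14076) and genes lowered at least 2-fold (blue, 309). The red curve lies to the left of the black one, with medians of -0.16 and 0.01.

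Transcription factors of the early response were part of that group. Of 43 tested immediate early genes, 1 (Atf3, 0.26) was higher and 13 were lower in TTP-KO, and their median was -0.14. Without TTP-KO replicate 1, WT replicate 1 or WT replicate 2 no member was called higher. Id1, an inhibitor of helix-loop-helix factors, had 183, 146 and 168 CPM in TTP-KO and 242, 264 and 292 CPM in WT (-0.68 ± 0.07, adjusted p = 2.5e-06). The survival factor Ier3 had 357, 358 and 347 CPM in TTP-KO and 467, 487 and 526 CPM in WT (-0.48 ± 0.05, adjusted p = 1.6e-07). Both were lower in every TTP-KO library. The orphan nuclear receptor Nr4a3 fell by 0.40, Ier5 by 0.34, Klf6 by 0.31, Jund by 0.23 and Id2 by 0.20.

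Some feedback inhibitors of cytokine and kinase signalling were lower in TTP-KO. Of 30 tested members of the MAPK, SOCS and Pim feedback list, 7 were lower in TTP-KO, also when any 1 library was left out, with a list median of -0.20. Socs1 had 247, 230.3 and 247 CPM in TTP-KO, against 332, 336 and 397 CPM in WT (-0.56 ± 0.06, adjusted p = 9.2e-08). Socs3 had 134, 129.8 and 128 CPM in TTP-KO and 168, 189 and 220.2 CPM in WT (-0.56 ± 0.07, adjusted p = 6.7e-06). Cish, which like them blocks JAK-STAT signalling, had 354, 329.7 and 337 CPM in TTP-KO and 426, 445 and 518 CPM in WT (-0.44 ± 0.07, adjusted p = 0.00046). None of these groups overlapped. The kinase Pim3 fell by 0.36, and the MAP kinase phosphatases Dusp10, Dusp2 and Dusp6 fell by 0.63, 0.42 and 0.32. Others did not pass the test, among them Dusp1 (0.04, adjusted p = 0.84) and Socs2 (0.09, adjusted p = 0.7). The single higher member, Rgs2 (0.17), lost its call without any 1 library other than TTP-KO replicate 3.

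NF-kB subunits and targets gave 0 higher and 10 lower members of 35 (median -0.10). The count of lower members was 6 without TTP-KO replicate 2 and 5 without TTP-KO replicate 3 or without WT replicate 2. Those kept in all 6 fits included the dendritic and B cell activation marker Cd83 (-0.52 ± 0.08), the adaptor Traf1 (-0.51 ± 0.10) and the costimulatory receptor Cd40 (-0.43 ± 0.09). In control Cd83 differed by -0.65 (adjusted p = 1.3e-05), Cd40 by -0.33 (adjusted p = 0.052) and Traf1 by -0.26 (adjusted p = 0.2). The list median was -0.11 in control and -0.14 at 2 h. The inhibitor Nfkbia, itself an NF-kB target, had a log2 difference of -0.06 ± 0.05 (adjusted p = 0.57).

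Surface proteins of activated basophils were lower more often than higher: 16 of 48 tested costimulatory and inhibitory surface proteins were lower and 4 higher in TTP-KO (median -0.15). P2ry1, a receptor for extracellular ADP, had 239, 225 and 237 CPM in TTP-KO and 336, 366 and 351 CPM in WT (-0.59 ± 0.05, adjusted p = 5.5e-09). The activation marker Cd69 had 122, 119 and 109.8 CPM in TTP-KO and 155, 184 and 199.8 CPM in WT (-0.62 ± 0.08, adjusted p = 1.9e-05). Cd24a, a small glycosylated adhesion protein, had 82.7, 82.4 and 80.5 CPM in TTP-KO and 117, 128 and 128 CPM in WT (-0.60 ± 0.07, adjusted p = 3e-07). All 3 were lower in every TTP-KO library. The receptor for UDP-glucose P2ry14 fell by 0.51, the inhibitory receptor Havcr2 by 0.32 and the activating receptor Cd200r4 by 0.25. Lilrb4a and Lilrb4b, a near-identical pair of inhibitory receptors whose reads may be split uncertainly, fell by 0.38 and 0.30.

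Higher surface proteins included Clec7a (Dectin-1, a receptor for fungal glucan), with 1201, 1182 and 1161 CPM in TTP-KO and 946, 891 and 876 CPM in WT (0.39 ± 0.04, adjusted p = 1.7e-07). The checkpoint ligand Cd274 (PD-L1) was higher by 0.25 ± 0.05 and the activating receptor Cd300lb by 0.24 ± 0.05. F2r, the thrombin receptor, which is in none of the lists, had 336, 327 and 352 CPM in TTP-KO and 512, 521 and 557 CPM in WT (-0.65 ± 0.04, adjusted p = 5.4e-11).

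Of the mast cell type proteases among granule genes, Tpsb2 and Cma1 were lower in TTP-KO. Tpsb2, a tryptase, had 81.4, 79.2 and 82.6 CPM in TTP-KO and 137, 148 and 140.5 CPM in WT (-0.81 ± 0.06, adjusted p = 1.5e-10). Cma1, a chymase, had 23.5, 25 and 22.4 CPM in TTP-KO and 43, 38.7 and 35.1 CPM in WT (-0.73 ± 0.12, adjusted p = 0.00022). Both were lower in every TTP-KO library, and both had differed in control, by -0.86 and -0.62. The related tryptases Tpsab1 (-0.61, adjusted p = 0.45) and Tpsg1 (-0.27, adjusted p = 0.27) and the carboxypeptidase Cpa3 (-0.11, adjusted p = 0.065) did not pass the test, and the chymase Mcpt4 was below the expression filter. Gzmb (granzyme B), which antigen induced in WT by 1.98, had 512, 483 and 403 CPM in TTP-KO and 685, 775 and 823 CPM in WT (-0.71 ± 0.09, adjusted p = 0.00022). The membrane fusion protein Snap23 (-0.42 ± 0.05), the granule proteoglycan core protein Srgn (-0.20 ± 0.03) and the protease inhibitor Serpinb1a (-0.21 ± 0.04) were also lower. The list of 33 held 10 lower and 3 higher members (median -0.08). Without WT replicate 2 the lower ones were 6. The higher ones were 2 without TTP-KO replicate 3 and 1 without any other single library, and 1 with RLE scaling or with no expression filter. Cathepsin L (Ctsl, 0.37 ± 0.07) was higher in all 6 such fits. The other 2 were Ctsg (0.14) and Lamp1 (0.16).

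Of 29 tested genes for histamine and lipid mediators, 1 was higher and 4 lower in TTP-KO (median -0.07). Ltb4r1, a receptor for leukotriene B4, had 51, 45.9 and 51.3 CPM in TTP-KO and 74.5, 75.8 and 82.3 CPM in WT (-0.65 ± 0.09, adjusted p = 9.1e-06). The prostaglandin E2 receptor Ptger3 (-0.45 ± 0.07) and Alox5, the first enzyme of leukotriene synthesis (-0.27 ± 0.04), were lower too. Pla2g7, which breaks down platelet-activating factor, was higher by 0.39 ± 0.07. Hdc, the enzyme that makes histamine, had 3749, 3756 and 3684 CPM in TTP-KO and 3949.9, 4076 and 4439.6 CPM in WT (-0.16 ± 0.04, adjusted p = 0.011), and its call was kept in 4 of 6 fits that left out a library.

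Of 47 tested members of the IgE receptor pathway, 2 were higher (4.26%) and 6 lower (12.8%) in TTP-KO (median -0.04). The shares over all genes tested were 1.83% and 3.4%. The lower ones numbered 2 without TTP-KO replicate 2 and 3 without WT replicate 1 or WT replicate 3, and 1 member was higher without TTP-KO replicate 1, TTP-KO replicate 2, WT replicate 1 or WT replicate 3. Fcer1a, the chain that binds IgE, had 439, 438 and 445 CPM in TTP-KO and 465, 480.3 and 448 CPM in WT (-0.08 ± 0.04, adjusted p = 0.37). Members that kept their call were the adaptor Lcp2 (SLP-76, -0.26 ± 0.05, adjusted p = 0.0004) and the ubiquitin ligase Cbl (0.30 ± 0.06, adjusted p = 0.0036), which limits receptor kinase signalling. In the calcium and NFAT list of 28, Nfatc2 (-0.56) and the calcium-activated channel Trpm4 (-0.37 ± 0.08) were lower and the calcium pump Atp2b4 (0.48) higher. That is 7.14% of the list lower and 3.57% higher. Without TTP-KO replicate 1, TTP-KO replicate 3, WT replicate 2 or WT replicate 3 this list had 1 lower member, and without WT replicate 2 it had no higher member.

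Many MHC class II genes were lower in TTP-KO. Of 15 tested, 8 were lower and 1, Ctss (0.13), higher in TTP-KO, with a median of -0.46, and without any 1 library other than TTP-KO replicate 3 no member was called higher. Cd74, the invariant chain, had 1692, 1659 and 1568 CPM in TTP-KO and 2506, 2555 and 2568 CPM in WT (-0.63 ± 0.04, adjusted p = 5.2e-12). The class II chains H2-Eb1, H2-Ab1 and H2-Aa fell by 0.75, 0.68 and 0.68, and the peptide loading factor H2-DMb1 by 0.45. These genes resemble each other in sequence, so reads may be split uncertainly between them. Ciita, their master activator, averaged 9.29 ± 0.508 CPM in TTP-KO and 15.3 ± 0.653 CPM in WT (-0.72 ± 0.13, adjusted p = 0.00056). For Cd74, H2-Eb1, H2-Ab1 and H2-Aa the differences in control were -0.59, -0.87, -0.75 and -0.71, and none of the 4 passed the test of a change between control and 4 h (adjusted p from 0.55 to 0.9).

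Marker genes of other blood cells moved with genotype in these enriched cultures. In bulk samples fewer cells of a type and less RNA per cell cannot be told apart. The summed level of 12 basophil markers, with Il4 among them, ran from 25871 to 26453 CPM in TTP-KO and from 26500 to 28122 CPM in WT. Of these markers 1 (Il4) was higher and 5 lower in TTP-KO, the lower ones numbering 3 without TTP-KO replicate 1, TTP-KO replicate 3 or WT replicate 2, 2 without TTP-KO replicate 2 and 1 without WT replicate 3. Cyp11a1, a steroid-forming enzyme of basophils, averaged 2194 ± 98 CPM in TTP-KO and 2628 ± 25.9 CPM in WT (-0.26 ± 0.04, adjusted p = 1.8e-05), with its call kept in all 6 fits. Mcpt8, a basophil protease, averaged 6005 ± 323 CPM in TTP-KO and 6862 ± 511 CPM in WT (-0.19 ± 0.05, adjusted p = 0.029). Its groups overlapped, and its call was kept in 2 of the 6 fits. The basophil protease Prss34 had 9173, 9150.0 and 9463 CPM in TTP-KO and 8799.6, 8792 and 8678 CPM in WT, a log2 difference of 0.08 ± 0.03 (adjusted p = 0.12).

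B cell genes had the lowest median of all lists, -0.85 over 14 tested markers. Of them 0 were higher and 6 lower in TTP-KO. Their summed level was 134, 123 and 135 CPM in TTP-KO and 185, 288 and 217 CPM in WT. Cd79a and Cd79b, the signalling chains of the B cell receptor, averaged 7.6 ± 0.485 and 9.88 ± 2.01 CPM in TTP-KO and 15.4 ± 3.25 and 18.6 ± 2.3 CPM in WT (-1.01 ± 0.15 and -0.91 ± 0.16). The B lineage factors Spib and Pou2af1 had log2 differences of -1.47 and -1.38, and the early B cell surface protein Ly6d fell by 1.13. The immunoglobulin segment Ighv9-3, one of many near-identical copies, had 1.12, 1.43 and 1.33 CPM in TTP-KO and 8.66, 11.6 and 16.6 CPM in WT (-3.24 ± 0.48, adjusted p = 0.00037), the largest fall among named genes. Part of these genes were already lower in control, where Cd79a differed by -1.04.

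Among 8 tested dendritic cell markers, 2 were lower, Cd74 and H2-Ab1, which are also class II genes. The summed level of this list was 2261, 2236 and 2134 CPM in TTP-KO and 3273, 3387 and 3353 CPM in WT. Most of that sum was Cd74, with means of 1640 CPM in TTP-KO and 2543 CPM in WT, and H2-Ab1, with 379 and 607 CPM. The lower sum thus repeats the class II difference. The more specific dendritic cell markers Flt3, Xcr1, Cd209a and Siglech had at most 4 counts in a TTP-KO library and at most 8 in a WT library. Mast cell markers summed to 378, 366 and 369 CPM in TTP-KO and 484, 508 and 487 CPM in WT. Of 8 tested, 3 were lower: Tpsb2, Cma1 and the serotonin transporter Slc6a4 (-0.42 ± 0.06). The mast cell receptors Mrgprb1 and Mrgprb2 were at 0 in all 6 libraries. The part of B cells, dendritic cells and mast cells in the class II and protease differences was not tested.

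Many neutrophil genes were higher in TTP-KO. Of 20 tested neutrophil and precursor markers, 11 were higher and 1, Cxcr2, lower, with a median of 0.35 and a summed level of 3505, 3334 and 3126 CPM in TTP-KO against 2271, 2201 and 2339 CPM in WT. S100a8 and S100a9, which form calprotectin, had the largest log2 differences among the called members of this list. S100a9 had 915, 829 and 792 CPM in TTP-KO and 393, 368 and 407 CPM in WT (1.12 ± 0.15, adjusted p = 0.00054). S100a8 had 401, 342 and 365 CPM in TTP-KO and 165, 153 and 178 CPM in WT (1.16 ± 0.17, adjusted p = 0.00089). For both, every TTP-KO library lay above every WT library.

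Granule proteins of the secondary type rose alongside: lactoferrin (Ltf, 1.04 ± 0.08), the cathelicidin Camp (1.08 ± 0.13) and Ngp (0.88 ± 0.11). Of the primary granule genes, Mpo rose by 0.38 ± 0.07 and Prtn3 by 0.58 ± 0.11. Camp, Ltf and Ngp were also higher in control, by 0.99, 0.86 and 0.80. The neutrophil surface marker Ly6g (-0.68, adjusted p = 0.43) and the receptor Csf3r (0.06, adjusted p = 0.8) did not pass the test.

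Many macrophage genes were higher as well. Of 18 tested monocyte and macrophage markers, 11 were higher and 1, Ccr2, lower, with a median of 0.24. Their summed level was 12988, 12682 and 12111 CPM in TTP-KO and 10103, 9976 and 9691 CPM in WT. Lyz2 (lysozyme) had 6537, 6488 and 6012 CPM in TTP-KO and 5136, 5071 and 4861 CPM in WT (0.34 ± 0.03, adjusted p = 1.2e-07). Apoe, a lipid carrier, had 3421, 3273 and 3261 CPM in TTP-KO and 2457, 2369.5 and 2344 CPM in WT (0.47 ± 0.04, adjusted p = 1.2e-09). The receptor for dying cells Mertk rose by 0.61 ± 0.10 and Ms4a7 by 0.41 ± 0.08. Csf1r (0.12, adjusted p = 0.14) and Adgre1 (-0.01, adjusted p = 0.97) did not pass the test. For Lyz2 and Apoe the differences in control were 0.25 and 0.39.

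The list of lysosome and macrophage scavenging genes shares several of these members, and 17 of its 38 tested genes were higher and 1 lower in TTP-KO (median 0.15). Mrc1, the mannose receptor, had 119, 123 and 138 CPM in TTP-KO and 66.3, 70.2 and 70.9 CPM in WT (0.87 ± 0.07, adjusted p = 1.3e-09). Arg1, an enzyme that consumes arginine, had 123, 118 and 102 CPM in TTP-KO and 68.4, 70.5 and 80.8 CPM in WT (0.64 ± 0.08, adjusted p = 2.7e-06). The fatty acid binding proteins Fabp4 and Fabp5 rose by 0.57 and 0.43, the chitinase-like Chil3 by 0.49, the lipid droplet protein Plin2 by 0.35 and the lysosomal protease Lgmn by 0.37. The lower member was Spp1 (osteopontin), with 6558, 6561 and 6161 CPM in TTP-KO and 7544, 7940.2 and 7925 CPM in WT (-0.28 ± 0.04, adjusted p = 6.6e-06). The part of neutrophils and macrophages in the higher genes was not tested.

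**Figure D3:**
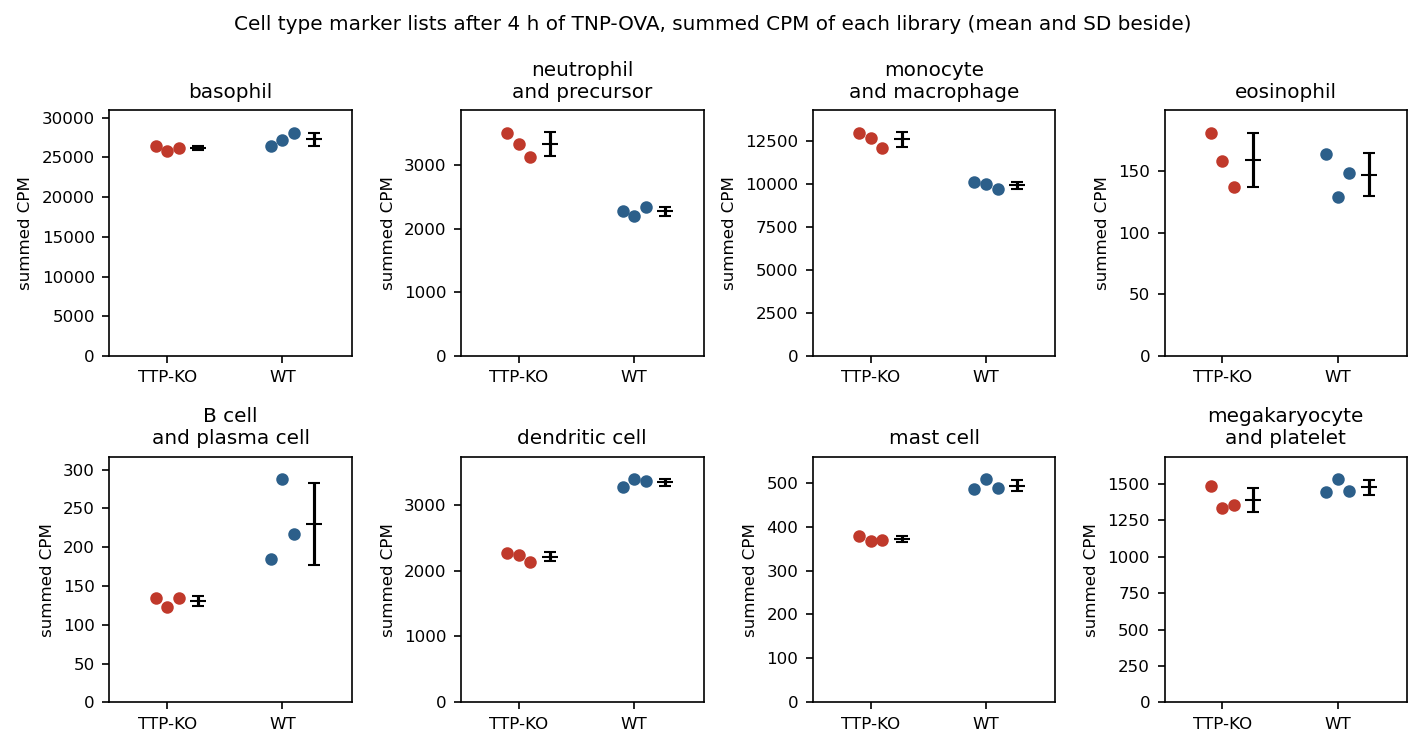
Summed CPM of 8 cell type marker lists in each TTP-KO (red, left) and WT (blue, right) library after 4 h of TNP-OVA, with mean and SD in black. Neutrophil and macrophage sums are higher, and basophil, B cell, dendritic cell and mast cell sums lower, in all 3 TTP-KO libraries, while eosinophil and platelet sums overlap. Most of the dendritic cell sum is the class II genes Cd74 and H2-Ab1.

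Of 6 tested lymphoid markers 1, Il7r, was lower. Of 8 eosinophil markers 1 was higher, Ear1, which has near-identical relatives, with 5.87, 5.84 and 5.34 CPM in TTP-KO and 2.38, 1.87 and 1.73 CPM in WT. The eosinophil sums were 181, 158 and 137 CPM in TTP-KO and 163, 129 and 148 CPM in WT. Among 7 erythroid markers Hba-a1 was lower (-0.73), a call that ended without TTP-KO replicate 1, TTP-KO replicate 2, WT replicate 1 or WT replicate 3. Of 10 megakaryocyte and platelet markers and 8 progenitor markers, 0 passed edgeR's test in the fit of all 18 libraries, while 4 and 2 had an unadjusted p under 0.05. The 4 platelet markers were all lower in TTP-KO, and the platelet list had 2 lower members with DESeq2, with no expression filter or with a replicate block, 4 with the 6 libraries alone and 1 without TTP-KO replicate 1. The progenitor marker Kit (-0.42, adjusted p = 0.053) was called lower with RLE scaling (adjusted p = 0.0463), with no filter (0.019) and with the 6 libraries alone (0.0151). DESeq2 called 0 progenitor markers.

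**Figure D4:**
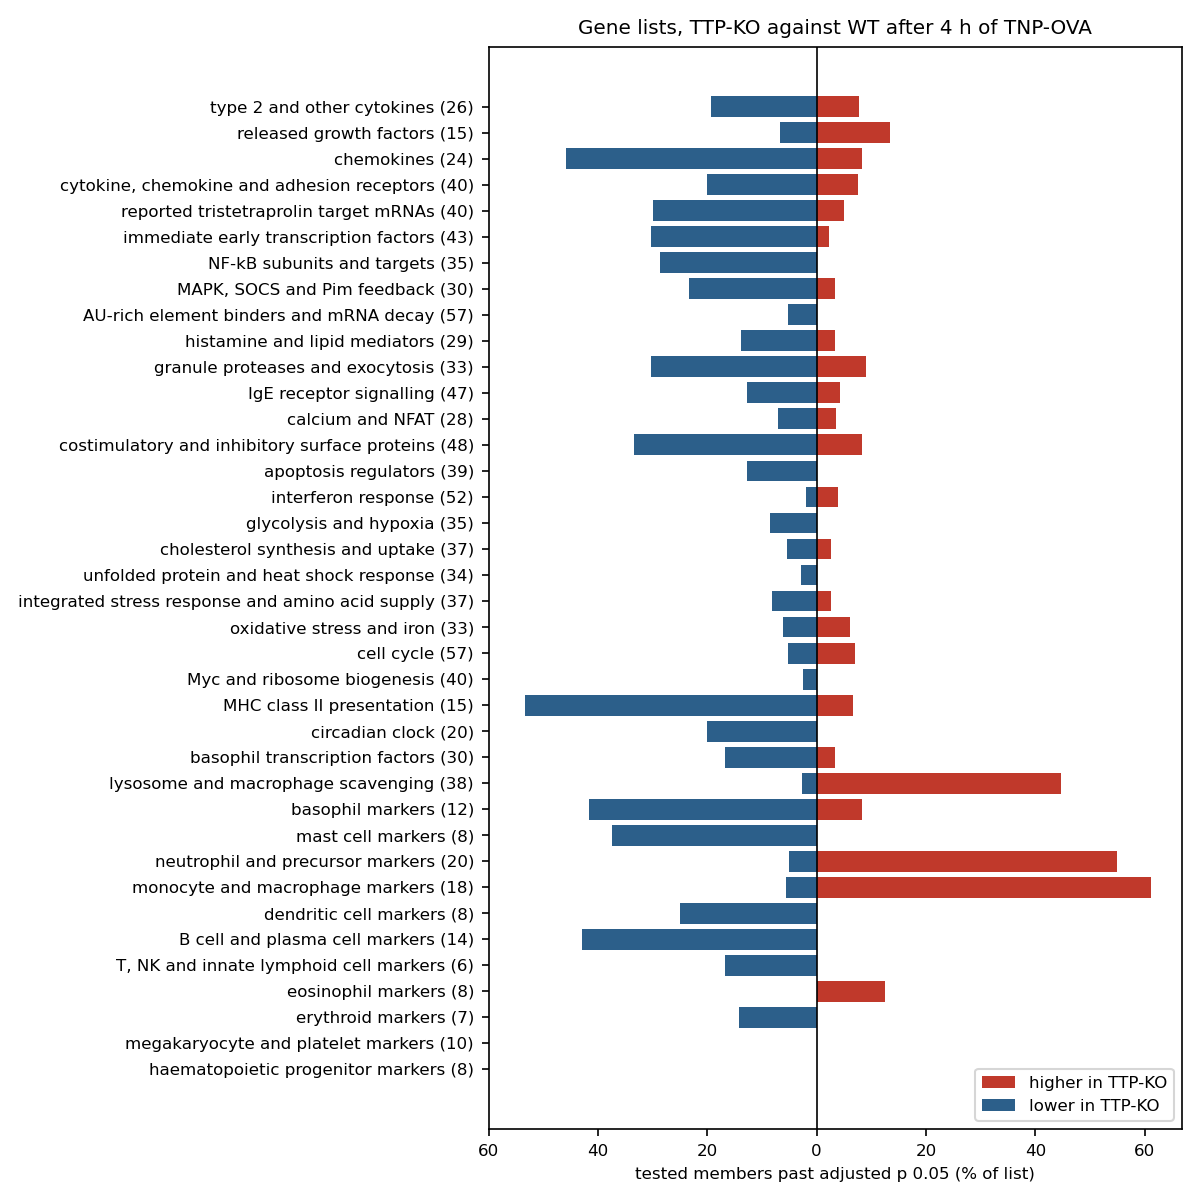
Share of tested members (number in parentheses) of each gene list that passed an adjusted p of 0.05, drawn to the right in red where higher in TTP-KO and to the left in blue where lower. The monocyte and macrophage, neutrophil and scavenging lists reach furthest right, and the MHC class II and chemokine lists furthest left.

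The largest increases over all genes were led by Plekhg2, a guanine nucleotide exchange factor, with 15, 20.5 and 21.7 CPM in TTP-KO and 6.54, 6.38 and 5.59 CPM in WT (1.61 ± 0.16, adjusted p = 9.2e-08). Cd38, an ectoenzyme that consumes NAD, had 15.7, 13.9 and 12.4 CPM in TTP-KO and 5.04, 5.21 and 7.32 CPM in WT (1.27 ± 0.19, adjusted p = 3.5e-05). Enpp1, an ectoenzyme that makes pyrophosphate, rose by 1.26. The small nuclear RNA Rn7sk (0.90) and the mitochondrial genes Chchd10 (0.95) and Ndufc1 (0.76) were also in this group. Rn7sk has no poly(A) tail in its mature form, and the libraries were made from poly(A) RNA. The ribosomal RNA sequence Rn18s-rs5 also took a larger share of every TTP-KO library than of any WT library.

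The largest decreases beside the B cell genes and Ccl22 were those of Enah, an actin regulator (-1.44 ± 0.23), the aldo-keto reductase Akr1c12 (-1.41 ± 0.16) and Asb2. Asb2, a ubiquitin ligase subunit, had 75.2, 59.8 and 65.9 CPM in TTP-KO and 145, 159 and 203 CPM in WT (-1.33 ± 0.10, adjusted p = 1.4e-08). Akr1c13, a near-identical relative of Akr1c12, had 65.7, 54.8 and 65.3 CPM in TTP-KO and 119.5, 112 and 134 CPM in WT (-0.97 ± 0.09, adjusted p = 1.4e-08). The adhesion molecules Vcam1 and Amigo2 fell by 1.06 and 1.05, the crosslinking enzyme Tgm1 by 1.05 and the inhibitory receptor Tigit by 0.99. Actb, the cytoplasmic actin, fell by 0.26 with a mean of 13287 ± 374 CPM in TTP-KO and 15920.0 ± 795 CPM in WT, the largest fall in CPM among the genes named.

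In the lists of metabolism and stress genes in this paragraph, 2.5% to 8.57% of members were lower in TTP-KO, against 3.4% of all genes. Higher were 0% to 2.7%, against 1.83% of all genes. The glucose transporter Slc2a3 (-0.39 ± 0.05), Hk3 (-0.25) and Ndrg1 (-0.23) were the 3 lower genes of 35 in the glycolysis and hypoxia list. The cholesterol exporter Abca1 was higher (0.45 ± 0.07) and Fdps (-0.28) and Mylip (-0.26) lower among 37 cholesterol genes, with 1 lower member without TTP-KO replicate 1, TTP-KO replicate 3 or WT replicate 1. Among 37 genes of the integrated stress response, the stress sensor Sesn2 (-0.63 ± 0.08) and the amino acid transporters Slc7a5 (-0.35 ± 0.05) and Slc7a11 (-0.27 ± 0.05) were lower, and Pck2 (0.42) was higher. Without WT replicate 1 that list had 2 higher members, and the call of Pck2 ended without TTP-KO replicate 1, TTP-KO replicate 3, WT replicate 2 or WT replicate 3. The chaperone Hspa8 (-0.19 ± 0.04) was the only one of 34 heat shock and unfolded protein genes to pass, and Mxd1 (-0.39 ± 0.05), an antagonist of Myc, the only one of 40 Myc and ribosome genes.

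Of all genes tested, 1.83% were higher and 3.4% lower in TTP-KO. Of 33 genes of oxidative stress and iron, Bach2 (-0.59 ± 0.13) and Slc7a11 were lower (6.06%). Txn1 (0.34) and Slc11a1 (0.26) were higher (6.06%), with 0 or 1 higher member without any 1 of the 6 libraries. Of 52 interferon response genes, Ifi27 (0.43 ± 0.08) and Ifit1 (0.48) were higher (3.85%) and Gbp2 (-0.40 ± 0.08) lower (1.92%), shares near those of all genes. Ifi27 alone was higher without TTP-KO replicate 3, WT replicate 1 or WT replicate 3. Of 57 mRNA decay and AU-rich element binding genes, 0 were higher, and Cnot7 (-0.25), Btg1 (-0.16) and Mapkapk2 (-0.15) were lower (5.26%). That count was 2 without TTP-KO replicate 1, 0 without TTP-KO replicate 2 and 1 without any other single library.

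In the cell cycle list of 57 genes, 4 were higher (7.02%) and 3 lower (5.26%), with a median of 0.11. Over all genes tested 1.83% were higher and 3.4% lower. Ccnd2 (cyclin D2), which antigen induced in WT by 2.03, had 119, 108 and 108 CPM in TTP-KO and 168, 180.1 and 203 CPM in WT (-0.71 ± 0.07, adjusted p = 2.6e-08). Cyclin D3 (Ccnd3) fell by 0.37. The higher ones were E2f1 (0.56), Rrm1 (0.34), Cdk6 (0.27) and Mki67 (0.20), and leaving out TTP-KO replicate 3, WT replicate 1, WT replicate 2 or WT replicate 3 lowered that count by over 1.5 times, to as few as 1. Of 39 apoptosis regulators 5 were lower (12.8%), among them the survival gene Bcl2l1 (-0.48 ± 0.10) and Cdkn1a. The lower ones were as few as 3 without TTP-KO replicate 2 or WT replicate 3. Of 20 circadian clock genes 4 were lower (20%), including Ciart (-0.90 ± 0.16), Nr1d1 (-0.86 ± 0.12) and Nfil3 (-0.36 ± 0.06). Ciart and Nr1d1 had differed in control by -0.82 each. Of 30 basophil transcription factors, 5 were lower (16.7%) and 1 (E2f1) higher (3.33%). The lower ones numbered between 2 and 5 when 1 library was left out, the fall past 1.5 times coming without WT replicate 2 or WT replicate 3, and E2f1 lost its call without TTP-KO replicate 3 or WT replicate 3.

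Some of the differences at 4 h were also present in the other conditions, and others changed between conditions by direct test. The genotypes differed in 393 genes after 2 h of TNP-OVA (2.79% of genes tested, 0.909% higher and 1.88% lower in TTP-KO) and in 232 after control OVA (1.65%, 0.412% higher and 1.24% lower). None of these libraries is shared with the 4 h comparison. Of the 735 genes called at 4 h, 187 were called in the same direction at 2 h, which is 25.4% of the 4 h calls and 47.6% of the 2 h calls. In control, 115 were called in the same direction, which is 15.7% of the 4 h calls and 49.6% of the control calls. Genes higher at 4 h had medians of 0.40 at 4 h, 0.14 at 2 h and 0.09 in control. Genes lower at 4 h had medians of -0.33, -0.16 and -0.12. The medians at 4 h belong to genes chosen at 4 h and are given as a description.

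The genotype difference itself changed between control and 4 h in 97 genes (0.689%), 39 upward (0.277%) and 58 downward (0.412%), by edgeR's interaction test. That change spans both antigen and time, which this design cannot tell apart. Between 2 h and 4 h of TNP-OVA the genotype difference changed in 44 genes (0.313%), 13 upward (0.0924%) and 31 downward (0.22%). The count of 97 became 49 without TTP-KO replicate 2 and 53 without WT replicate 2 or WT replicate 3, and the count of 44 became 26 without WT replicate 3. Mrc1 shifted upward: its difference was -0.07 in control, 0.05 at 2 h and 0.87 at 4 h (adjusted p = 1.8e-05 against control and 0.00011 against 2 h). Dab2, an endocytic adaptor, had -0.26, 0.07 and 0.67. Fn1 (fibronectin) had -0.53, -0.36 and 0.34, a difference that passed the test in each condition. Its RNA was lower in TTP-KO in control and at 2 h and higher at 4 h. For Dab2 and Fn1 both interactions passed the test.

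Other differences shifted downward. F2r had differences of -0.15 in control, -0.17 at 2 h and -0.65 at 4 h (adjusted p = 3.8e-05 against control and 0.00011 against 2 h). P2ry1 had 0.01, -0.20 and -0.59, Asb2 -0.10, -0.54 and -1.33, and Coro2a, an actin-binding protein, 0.18, -0.06 and -0.67. Ccl6 had -0.12, -0.10 and -0.48, and Akr1c13 0.08, 0.01 and -0.97. All 6 passed both interaction tests with every library left out in turn. Socs1 (-0.06 at 2 h), Ier3 (-0.06) and Pim3 (0.16) shifted as well, to -0.56, -0.48 and -0.36 at 4 h, with adjusted p of 0.0021, 0.0033 and 0.0036 for the change from 2 h.

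**Figure D5:**
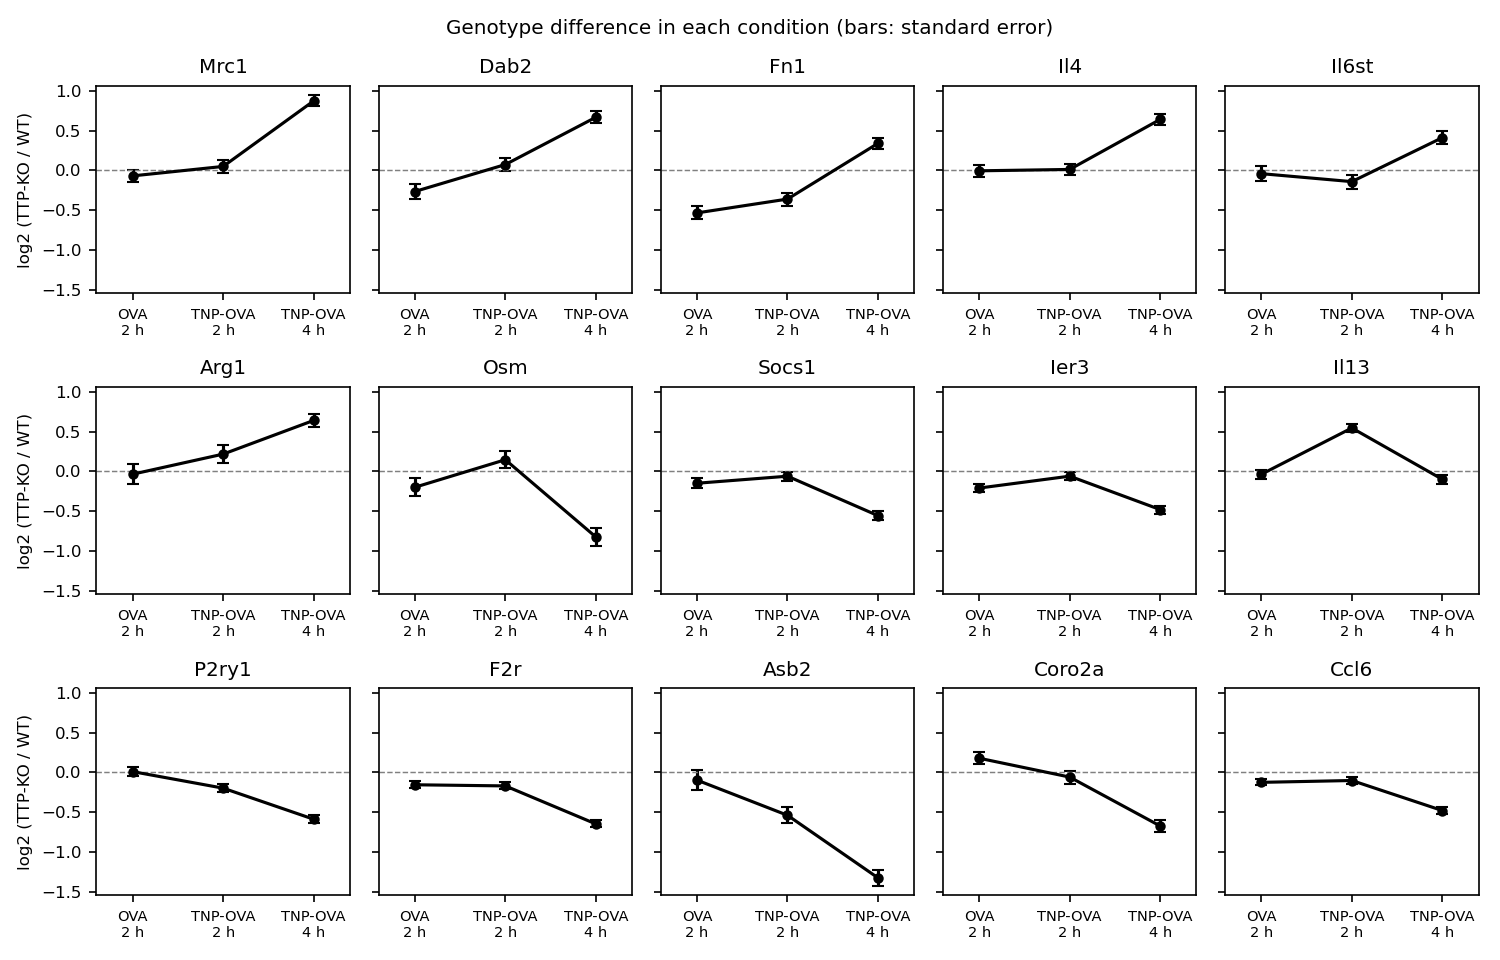
Log2 difference TTP-KO over WT (vertical axis) in control OVA at 2 h, TNP-OVA at 2 h and TNP-OVA at 4 h for 15 genes, with standard errors as bars. Mrc1, Dab2, Fn1 and Il4 move upward by 4 h, Il13 is highest at 2 h, and Socs1, Ier3, P2ry1, F2r, Asb2 and Coro2a move downward.

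Some differences passed the test in all 3 conditions. Tpsb2 differed by -0.86 in control, -0.52 at 2 h and -0.81 at 4 h. Cd74 differed by -0.59, -0.45 and -0.63, Camp by 0.99, 1.03 and 1.08, and Apoe by 0.39, 0.45 and 0.47. For these 4 genes neither interaction passed the test, which does not show that their differences were equal. Hbegf was higher by 0.60 at 2 h and 0.77 at 4 h, and Ccl3 by 0.57 and 0.32. Neither gene passed edgeR's test in control (0.28, adjusted p = 0.45, and 0.02, adjusted p = 0.91). The changes from control to 4 h did not pass the interaction test either (Hbegf adjusted p = 0.285, Ccl3 adjusted p = 0.058). Il3 differed by 0.22 in control (adjusted p = 0.9), -1.75 at 2 h and -1.37 at 4 h, and its change from control to 4 h, -1.59, did not pass the test (adjusted p = 0.2).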

How the data were processed

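Bulk poly(A) RNA libraries of basophils were analysed from a table of expected counts per gene deposited by the authors, without normalization. RSEM 1.3.1, STAR 2.7.10a, cutadapt 3.5 and the build GRCm39 appear in the submitters' processing notes. Whether counting used strand is not given in the sources. The control columns, named as unstimulated, were matched to the control OVA libraries by genotype and number. Library totals of the 6 libraries compared were 7555800 to 12733000.

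The rounded values went into edgeR 4.0.16 (R 4.3.3): filterByExpr on 6 groups, TMM scaling, a robust quasi-likelihood fit of all 18 libraries with a mean per group (12 residual degrees of freedom), and Benjamini-Hochberg adjustment over 14076 genes, threshold 0.05. The genes tested hold 99.8% of the counts of these libraries. CPM are TMM-scaled. Standard errors are the log2 difference divided by the square root of F. A fold change is TTP-KO over WT. An exact permutation test of 3 against 3 cannot go below p = 0.1. In simulated counts for this comparison (14076 genes) edgeR recovered 65 of 100 genes changed 1.5-fold and 83 of 100 changed 2-fold, with 8 others called, and DESeq2 1.42.0 recovered 64 and 84, with 15 others. The changed genes were drawn from those with mean log2 CPM of at least 2.

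The comparison, gene lists and naming rule were chosen with earlier results of these data known. Named were the 15 largest increases and decreases among called genes with mean log2 CPM of at least 2, no overlap and a call kept without each library in turn (336 genes met this), the 8 largest changes in CPM each way, up to 4 called members of each list, and the 6 smallest p each way for each change between conditions. Genes known by a clone name or number were counted only. Further list members, genes quoted as not passing and members named to complete a small count were named after their values were seen. Lists overlap, so their counts are not independent.

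Motifs were counted in the longest 3' UTR of GENCODE M21 (GRCm38), another build than the counts. Replicate numbers did not pair libraries (same-number correlations -0.04, -0.003 and 0.06). Alternatives were DESeq2, RLE scaling, no filter, a fit of the 6 libraries alone, a replicate block and leaving out each library. Some genes that met the naming rule are not reported here.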

Additional observations from a re-analysis of the deposited data

Results flagged for a closer look

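Named genes are given here because the genotype difference after 4 h of TNP-OVA differed from the one in another condition by edgeR's interaction test. Values are the log2 difference TTP-KO over WT at 4 h minus that in the other condition.

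Against control OVA, 35 named genes passed. The difference shifted upward for Mrc1 (0.94), Dab2 (0.93), Ifit1 (0.88), Fn1 (0.88), Rnf125 (0.77), Arg1 (0.68), Il4 (0.65), Fabp4 (0.49), Sdc4 (0.42), Cbl (0.39), Lpl (0.37), Clec7a (0.27). It shifted downward for Asb2 (-1.23), Tgm1 (-1.09), Akr1c13 (-1.05), Sos1 (-0.87), Coro2a (-0.85), Amigo2 (-0.82), Lif (-0.76), Bcl2 (-0.70), Id1 (-0.70), Ccnd2 (-0.65), Cd69 (-0.62), P2ry1 (-0.60), Socs3 (-0.60), F2r (-0.49), Nr4a3 (-0.46), Socs1 (-0.41), Ccl6 (-0.35), Spp1 (-0.33), Ms4a2 (-0.32), Ccnd3 (-0.31), Alox5 (-0.31), Actb (-0.26), Ccl9 (-0.24). Of these 35, 24 kept the call when each of the 6 libraries was left out in turn. For the other 11 (Alox5, Fabp4, Socs1, Tgm1, Clec7a, Arg1, Lif, Sos1, Cbl, Ms4a2 and Amigo2) the highest adjusted p without 1 library was 0.156, for Ms4a2 without TTP-KO replicate 2. Alox5 and Fabp4 lost the call without WT replicate 3 alone (adjusted p = 0.0594 each). Socs1 lost it without TTP-KO replicate 2 (0.0677) or WT replicate 3.

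Against 2 h of TNP-OVA, 24 named genes passed. The difference shifted upward for Mrc1 (0.82), Fn1 (0.70), Il4 (0.63), Dab2 (0.59), Il6st (0.55), Ptgr3 (0.55), Kctd12 (0.33), Sdc4 (0.31). It shifted downward for Akr1c12 (-1.21), Akr1c13 (-0.98), Osm (-0.97), Asb2 (-0.79), Il13 (-0.65), Coro2a (-0.62), Pim3 (-0.52), Socs1 (-0.50), F2r (-0.48), Ier3 (-0.42), P2ry1 (-0.39), Snap23 (-0.38), Ccl6 (-0.38), Ccl4 (-0.31), Cdkn1a (-0.29), Ccl9 (-0.25). Of these 24, 18 kept the call without each library in turn. Osm lost it without TTP-KO replicate 2 (adjusted p = 0.0585) or TTP-KO replicate 3, and Ccl4 without WT replicate 2 or WT replicate 3 (0.0672). Ptgr3 (0.0586), Il6st (0.109), Sdc4 (0.104) and Akr1c12 (0.116) lost it in at least 3 of the 6 fits, with the highest adjusted p given. Il13 has the smallest adjusted p of this group (4.88e-05), and the highest it reached without 1 library was 0.00035.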

How the results depend on the processing

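The 735 genes called at 4 h became 759 with RLE scaling, 762 with DESeq2, 884 with no expression filter, 1086 with the 6 libraries alone and 500 to 559 when 1 library was left out. With a replicate block the count was 746, of which 702 were shared with the 735, and for the changes from control and from 2 h it was 89 and 43. Libraries with the same number did not deviate together, so the block is not a paired design. The 97 genes whose difference changed from control to 4 h became 259 without the filter and 176 with DESeq2, and ran from 49 to 75 when 1 library was left out. The 44 that changed from 2 h to 4 h became 134 and 103, and ran from 26 to 54. The cause was not tested. None of the 155 genes chosen by the naming rule changed direction under the alternatives run; genes named beside the rule were not all followed. Of the 155, RLE scaling ended 1 call and DESeq2 3, the replicate block 3, the 6 libraries alone 7, and leaving out 1 library 11 to 21. With 3 libraries in a group, simulated differences of 1.5-fold and of 2-fold were recovered only in part, and smaller ones were not simulated. Genes below the expression filter were not tested.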
